A study of Homo sapiens with 2 samples.

Results

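Aminoacyl tRNA synthetases join each amino acid to its tRNA, and their products feed the ribosomes of the cytosol and of mitochondria. Separate nuclear genes usually encode the cytosolic and the mitochondrial enzyme for an amino acid, and the enzymes fall into class I and class II by the fold of the catalytic domain. Several cytosolic synthetases sit in a multisynthetase complex, and many are known targets of ATF4, the transcription factor of the amino acid response. The genes described here were those whose symbol in the array annotation is the letter of an amino acid followed by ARS, with or without a closing 1 or 2, together with FARSA and FARSB. EPRS1, the glutamyl-prolyl enzyme, was taken in as a synthetase although its symbol has no A. Probe sets annotated to a single gene read 32 of these genes, 17 cytosolic and 15 mitochondrial, out of 19775 genes read in all. MARS1, QARS1 and TARS2 were read only by probe sets that carry a microRNA symbol as well, and these 3 genes were not analysed. The genes were picked by name and not by a measured value, although earlier results of these data were known when they were picked.

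The cells were AsPC-1, an established human PDAC line, and 1 culture was labelled control (negative control siRNA) and 1 was labelled PGR-interference (siRNA against PGR, the progesterone receptor). Both were grown with fetal bovine serum, and each was read on 1 array of the 3' expression type, which allowed no test and limits the precision to that of a single pair of arrays. Each array is named here by its label. The study asked which genes differ when PGR is knocked down. Values are linear intensities, and differences are log2(intensity + 1), the siRNA-labelled array minus the control-labelled one, read by the probe set of each gene with the highest mean signal. PGR itself read 16.1 on the control-labelled array and 73.3 on the siRNA-labelled array. Both values lie below the signal floor of 97.9, which is the median over the named probe sets of both arrays, and they run against the labels, so each direction below rests on the labels alone. Of 10 epithelial and ductal markers of the line, 9 were past the floor on both arrays, and CEACAM6 (120 and 79.3) was past it on 1. The 9 ran from KRT18 at 48572 and 55425 down to MUC1 at 122 and 174. Between them, EPCAM read 20351 and 20305, and KRT7 read 189 and 182. Of the markers of other cell types, 2 of 6 fibroblast genes passed the floor on at least 1 array (COL1A1 at 299 on both, and DCN at 115 and 60.3), 1 of 4 endothelial genes (PECAM1, 163 and 93.2), 1 of 3 leukocyte genes (CD14, 114 and 87.8) and 0 of 3 acinar genes. PTPRC (32.2 and 14.3) and COL1A2 (28.7 and 18.0) were below it on both.

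Before the values, the promoters of the genes are shown, because the amino acid response acts through a short element in them. RefSeq promoter windows of GRCh38.p14, from 250 bases before to 50 bases after an annotated start, were at hand for 27 of the 32 genes, 9 of them with 2 windows. The 5 genes without a window were AARS2, LARS1, VARS1, VARS2 and YARS1. The letters TGATGNAA, which ATF4 binds together with C/EBP factors, were searched on both strands and occurred in 7 of these 27 genes (25.9%), against 3.6% of 15842 protein-coding genes with a window. These protein-coding genes were not limited to genes past the floor, as all 32 synthetases were, nor matched in windows per gene. The sets are therefore unlike, here and for the other letters below. Of the 14 cytosolic genes with a window 6 held the letters, and of the 13 mitochondrial genes 1 did. For 5 of the 7 genes the match is printed in the direction of transcription with 15 bases on either side, and capitals mark the match, which reads TTNCATCA where it lies on the opposite strand.
AARS1: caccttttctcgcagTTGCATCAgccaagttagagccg
CARS1: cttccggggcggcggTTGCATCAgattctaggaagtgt
GARS1: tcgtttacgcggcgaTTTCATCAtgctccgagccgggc
TARS1: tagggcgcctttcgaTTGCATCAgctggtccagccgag
YARS2: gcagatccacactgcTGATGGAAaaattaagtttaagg
These stretches lie at chr16:70289671-70289708 on the minus strand for AARS1, chr11:3057403-3057440 on the minus strand for CARS1, chr7:30594830-30594867 on the plus strand for GARS1, chr5:33440952-33440989 on the plus strand for TARS1 and chr12:32756072-32756109 on the minus strand for YARS2. All of the 6 cytosolic genes with the letters are among those known for induction in the amino acid response. So are 11 of the 17 cytosolic genes read, and EPRS1, SARS1 and WARS1 among them have a window without the letters. The known genes were listed from general knowledge of ATF4 targets, so the overlap is no independent check. A match is a description of letters in a window and does not show that a factor was bound in these cells.

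No synthetase gene was 1.5-fold apart between the arrays. With the fold set at 1.5, 0 of 32 genes were higher on the siRNA-labelled array and 0 were lower, against 3.65% of all 11614 genes past the floor that were higher and 4.72% that were lower. All 32 genes reached the floor on both arrays, and among the 10840 genes for which this held the background was 1.86% higher and 2.31% lower. Counts of 0 among 32 genes are too few to be read against these shares. The differences ran from -0.24 for CARS2 to 0.38 for VARS1, with an SD over the 32 genes of 0.17, and the median was 0.09 against 0.02 over all genes past the floor. Of the 32 genes, 21 lay above 0 and 11 below, against 53.2% above 0 over all genes past the floor and 53.9% over those past it on both arrays. At the smaller fold of 1.2, which was set after the values were seen, 6 genes were higher (VARS1, WARS2, AARS2, FARS2, EARS2 and HARS2) and 0 were lower, against 15.1% and 15.6% of all genes past the floor and 13.4% and 12.9% of those past it on both arrays. A fold of 1.25, also set after the values were seen and tried before that of 1.2, left 4 higher genes (VARS1, WARS2, AARS2 and FARS2) and 0 lower, against 11.3% and 12.3% of genes past the floor and 9.44% and 9.56% of those past it on both arrays. The 17 genes of class I had a median difference of 0.08 and the 15 of class II one of 0.11.

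**Figure D1:**
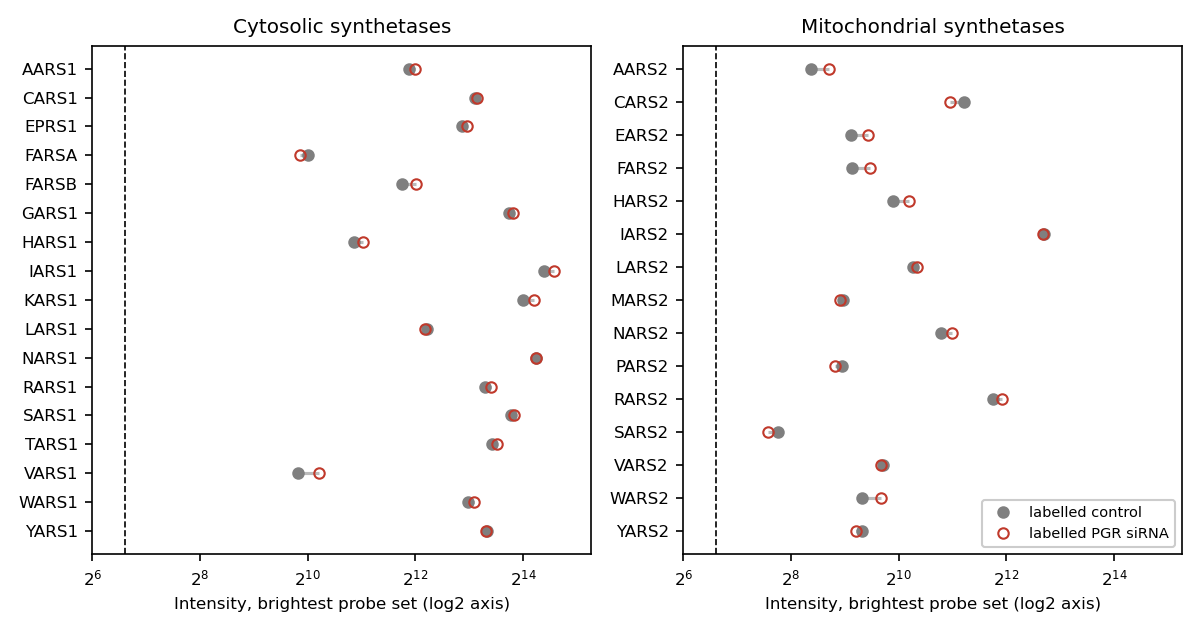
Intensity of each of the 32 synthetase genes by its brightest probe set on a log2 axis, with 1 point for the control-labelled array (filled) and 1 for the siRNA-labelled array (open), the floor of 97.9 as a dashed line and no error bars because there was 1 array per condition. All values lie right of the floor, and the points of a gene stand close together, farthest apart for VARS1 at 0.38 on the log2 scale.

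The cytosolic enzymes had a median difference of 0.09 over 17 genes, 13 of them above 0 and 4 below. With loess on signal the median was 0.037 and CARS1 and SARS1 turned below 0, and with quantile normalization it was 0.055. VARS1, which charges tRNA with valine, read 905 on the control-labelled array and 1181 on the siRNA-labelled array, a log2 difference of 0.38 or 1.30-fold. FARSA and FARSB, the alpha and beta subunits of the one phenylalanyl enzyme of the cytosol, stood on either side of 0. FARSB read 3440 and 4125, a log2 difference of 0.26, and FARSA read 1032 and 932, a difference of -0.15. A second FARSA probe set went the other way, from 813 to 1026, at 0.33, so the subunits cannot be told apart by sign. The remaining enzymes below 0 were LARS1 and YARS1, each at -0.02, and NARS1, which read 19472 and 19463. NARS1, the asparaginyl enzyme, was thus the member with the most equal values.

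KARS1 and GARS1 each serve both compartments, since 1 gene makes the cytosolic and the mitochondrial form of the enzyme. KARS1, which charges lysine, read 16415 on the control-labelled array and 18834 on the siRNA-labelled array, a log2 difference of 0.20, and its other probe set gave 0.15. GARS1, which charges glycine and is mutated in a form of Charcot-Marie-Tooth neuropathy, read 13694 and 14462, a difference of 0.08. HARS1, the histidyl enzyme and the Jo-1 autoantigen of myositis, read 1860 and 2094, a difference of 0.17. These 3 genes were all slightly higher on the siRNA-labelled array and all under 1.2-fold.

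The enzymes of the multisynthetase complex that were read here were EPRS1, IARS1, KARS1, LARS1 and RARS1, with a median difference of 0.10 and a range from -0.02 to 0.20. IARS1, the isoleucyl enzyme, read 21438 on the control-labelled array and 24388 on the siRNA-labelled array, a log2 difference of 0.19. RARS1, the arginyl enzyme, read 10087 and 10836, a difference of 0.10. EPRS1, whose glutamyl and prolyl activities share 1 polypeptide, read 7494 and 7920, a difference of 0.08, and its other probe sets gave 0.13 and -0.13. LARS1, known also as a leucine sensor upstream of mTORC1, read 4735 and 4658, a difference of -0.02. Its other 3 probe sets were all lower on the siRNA-labelled array, at -0.10, -0.17 and -0.50, the last from 1746 to 1238, so LARS1 was the complex member for which every probe set lay below 0. AIMP1, the one scaffold protein of the complex read here, stood at 4912 and 5232, a difference of 0.09, inside the range of the enzymes it holds together.

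Cytosolic synthetases known for induction with ATF4 had a median difference of 0.08 over 11 genes. The 6 others read (FARSA, FARSB, HARS1, KARS1, RARS1 and VARS1) had a median of 0.18. At 1.2-fold, 0 of the 11 genes and 1 of the 6 (VARS1) were higher, and 0 of either group were lower. Over all genes past the floor on both arrays, 13.4% were higher and 12.9% lower at that fold. Groups of 11 and 6 genes are too few to be read against these shares. By their brightest probe sets the 11 genes ran from -0.02 for LARS1 to 0.19 for IARS1, with an SD over genes of 0.06. Of the 11 genes, 8 had a mean log2 signal above 13, where the SD over all genes was 0.14, and other probe sets lay lower, at -0.57 for YARS1, -0.50 for LARS1, -0.28 for SARS1 and -0.25 for CARS1. AARS1, the alanyl enzyme, read 3776 and 4082, a log2 difference of 0.11, and WARS1, the tryptophanyl enzyme, read 8043 and 8712, a difference of 0.12, or 0.17 by its second probe set. TARS1, the threonyl enzyme, read 10994 and 11696 (0.09), SARS1, the seryl enzyme, 13954 and 14503 (0.06), and CARS1, the cysteinyl enzyme, 8782 and 9056 (0.04). Among the 7 genes whose promoter windows hold TGATGNAA the median difference was 0.08, with 5 above 0 and 2 below, and among the 20 genes with a window and no match it was 0.11, with 14 above 0. The 5 genes without a window are in neither group. They are VARS1 at 0.38, AARS2 at 0.35, and LARS1, VARS2 and YARS1, each at -0.02. The lists of ATF4 targets were written from general knowledge, and the groups were not tested against each other.

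Genes of the amino acid response outside the synthetases lay around 0 as well. Of 35 listed, 31 passed the floor, with a median difference of -0.0043, 15 above 0 and 16 below, 0 higher by 1.5-fold or more on the siRNA-labelled array and 1 lower, against 53.2% above 0, 3.65% higher and 4.72% lower over all genes past the floor. ATF4 itself read 25178 and 27077, a log2 difference of 0.10, and ASNS, the asparagine synthetase that ATF4 controls, read 25435 and 25154, a difference of -0.02. The lower gene was CTH, which makes cysteine from cystathionine, with 1713 on the control-labelled array and 1121 on the siRNA-labelled array, a difference of -0.61. VLDLR, a lipoprotein receptor gene, followed at -0.29. At the other end stood ALDH1L2, an enzyme of mitochondrial folate metabolism, at 0.29. GCN1, which helps the kinase GCN2 sense uncharged tRNA, and SHMT2 were both at 0.26. SLC7A1 at 0.25 and SESN2 at 0.22 came next, above EIF2AK4, which encodes GCN2, at 0.21.

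The mitochondrial enzymes had a median difference of 0.08 over 15 genes, 8 above 0 and 7 below, with an SD over genes of 0.21 against 0.12 for the cytosolic ones. The median was 0.21 when the probe sets of a gene were averaged and 0.17 with the signal filter at the 75th percentile. WARS2, the tryptophanyl enzyme, read 640 on the control-labelled array and 815 on the siRNA-labelled array, a log2 difference of 0.35. AARS2, the alanyl enzyme, whose loss causes a cardiomyopathy, read 329 and 419, also 0.35, and FARS2, the phenylalanyl enzyme, read 563 and 710, at 0.33. EARS2, the glutamyl enzyme, read 553 and 687, at 0.31, while its other probe sets past the floor read 378 and 414 (0.13) and 495 and 502 (0.02). Next came HARS2, the histidyl enzyme, 946 and 1169 (0.31), NARS2, the asparaginyl enzyme, 1756 and 2038 (0.21), and RARS2, the arginyl enzyme, 3453 and 3873 (0.17). These 7 genes form the upper end of the mitochondrial list.

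The lower end of the mitochondrial list was CARS2, SARS2, YARS2 and PARS2. CARS2, which charges cysteine and also forms cysteine persulfides, read 2362 on the control-labelled array and 1994 on the siRNA-labelled array, a log2 difference of -0.24. SARS2, the seryl enzyme, read 217 and 191 (-0.19), YARS2, the tyrosyl enzyme, 641 and 590 (-0.12), and PARS2, the prolyl enzyme, 491 and 452 (-0.12). MARS2, the methionyl enzyme, was at -0.06, VARS2 and IARS2, the valyl and isoleucyl enzymes, were each at -0.02, and LARS2, the leucyl enzyme, was at 0.08, with its second probe set at 0.10. By brightest probe sets, only CARS2 and SARS2 among these were below every cytosolic synthetase. Dimmer probe sets of YARS1 (-0.57), LARS1 (-0.50), SARS1 (-0.28) and CARS1 (-0.25) lay lower than both.

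The width of the spread went with the level of signal. All-gene differences had an SD of 0.32 where the mean log2 signal was below 10, 0.20 between 10 and 13 and 0.14 above 13, over genes with both values at the floor. Of the 10 synthetases in the dimmest range 9 were mitochondrial, and all of the 10 in the brightest range were cytosolic. In the dimmest range the synthetases had a median of -0.04 and an SD of 0.23, against a median of 0.01 over all 5469 genes there. In the middle range the 12 synthetases, 6 of each compartment, had a median of 0.14 and an SD of 0.17, against a median of 0.02 over 4755 genes. In the brightest range the median was 0.08 over the synthetases and 0.09 over all 616 genes, and 8 of 10 synthetases lay above 0 against 72.9% of those genes. Compartment and level of signal therefore cannot be told apart in the spreads over all synthetases, since the dimmest and brightest ranges hardly mix compartments. In the middle range, the 6 mitochondrial genes ran from -0.24 (CARS2) to 0.31 (HARS2) and the 6 cytosolic ones from -0.02 (LARS1) to 0.38 (VARS1). These groups were not tested against each other. Intensities of different probe sets give no order of transcript levels.

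**Figure D2:**
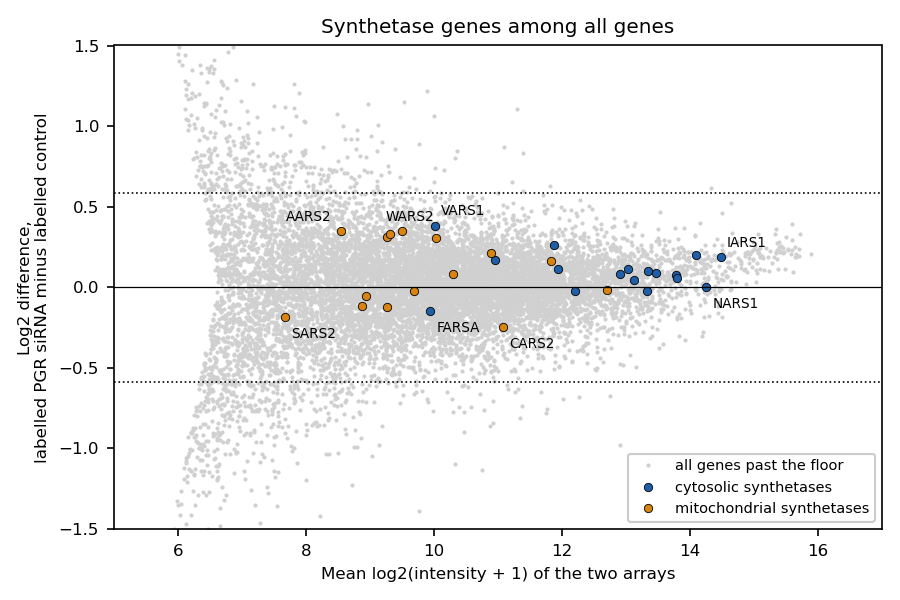
Log2 difference (siRNA-labelled minus control-labelled array) against mean log2(intensity + 1), with 1 point per gene past the floor, cytosolic synthetases in blue, mitochondrial in orange and dotted lines at 1.5-fold. The axis ends at a difference of 1.5 either way, and all 32 synthetases lie between the dotted lines, with the brightest of them close to the cloud of all genes, which itself rises at the right end.

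Synthetases of the same amino acid were then set side by side. Both genes were read for 12 amino acids, which gave 13 pairs because FARSA and FARSB share FARS2. In 5 pairs both genes lay above 0, in 1 pair (YARS1 at -0.02 and YARS2 at -0.12) both lay below, and in 7 pairs they had opposite signs. The mitochondrial gene had the larger difference in 8 of 13 pairs. The widest gap with the mitochondrial gene above was between FARSA at -0.15 and FARS2 at 0.33, but other probe sets of this pair, at 0.33 for FARSA and -0.35 for FARS2, turn the gap the other way. The widest gap with the cytosolic gene above was between VARS1 at 0.38 and VARS2 at -0.02. NARS1 and NARS2 differed by 0.21 and CARS1 and CARS2 by -0.29 (mitochondrial minus cytosolic), while RARS1 and RARS2 were 0.06 apart. The cytosolic and the mitochondrial enzyme of an amino acid thus had the same sign in 6 of 13 pairs, a count that was 9 with averaged probe sets, 8 with loess and 7 with quantile normalization.

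**Figure D3:**
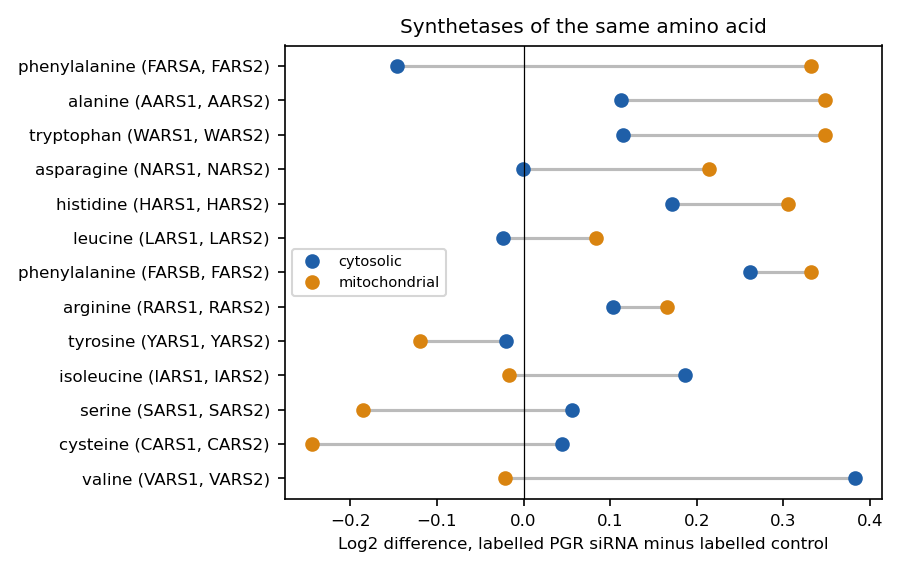
Log2 difference (siRNA-labelled minus control-labelled array) of the cytosolic (blue) and the mitochondrial (orange) synthetase of each amino acid, joined by a grey line and ordered by the gap. The phenylalanine pair of FARSA and FARS2 is at the top and the valine pair, with VARS1 at 0.38, at the bottom, and the points lie on either side of 0 in 7 of 13 pairs.

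HARS1 and HARS2 are neighbours that are transcribed away from each other, and their promoter windows share 184 of 300 bases, so their sequence is shown. The HARS1 window is printed in the direction of HARS1 transcription, on the minus strand at chr5:140691321-140691620, and capitals mark the bases that the window of HARS2 (plus strand, chr5:140691205-140691504) also covers.
HARS1: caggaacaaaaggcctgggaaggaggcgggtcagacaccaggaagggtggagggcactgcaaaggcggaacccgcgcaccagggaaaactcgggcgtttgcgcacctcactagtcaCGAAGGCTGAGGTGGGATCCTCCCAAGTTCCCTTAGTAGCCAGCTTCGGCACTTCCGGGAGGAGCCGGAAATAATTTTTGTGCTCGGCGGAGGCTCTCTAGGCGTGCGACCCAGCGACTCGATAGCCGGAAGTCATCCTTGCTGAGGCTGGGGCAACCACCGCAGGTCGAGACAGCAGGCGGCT
Both genes were read by a single probe set, and both were higher on the siRNA-labelled array, at 0.17 for HARS1 and 0.31 for HARS2. The shared stretch holds the letters CCGGAAG, the core of an ETS factor site, once on each strand. These letters were found in the windows of 15 of the 27 synthetase genes (55.6%), 9 of 14 cytosolic and 6 of 13 mitochondrial, against 16.5% of protein-coding genes. The 15 genes had a median difference of 0.08, with 10 above 0, and the 12 genes with a window but without the letters one of 0.14, with 9 above 0.

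Since PGR was the gene targeted, the letters TGTTCT, a single arm of the progesterone response element, were searched on both strands as well. They occurred in 4 of the 27 genes (14.8%), against 14.9% of protein-coding genes. The 4 genes were CARS2 at -0.24, FARSA at -0.15, GARS1 at 0.08 and FARSB at 0.26, so 2 lay below 0 and 2 above. The CCAAT box was found in 14 of 27 genes (51.9%, against 42.1%), the E-box CACGTG in 4 (14.8%, against 10.9%), the STAT site TTCNNNGAA in 5 (18.5%, against 8.98%) and the palindrome of the factor NRF1 (GCGC, AT and GCGC in a row) in 1, MARS2 (3.7%, against 1.99%). A window without a match says only that the letters are not in these bases.

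WARS1 is known for strong induction by interferon gamma, and for that reason interferon genes and the letters of their promoter element were set beside it. The core of the interferon-stimulated response element, searched on both strands as GAAA, any 2 bases and GAAA, occurred in 2 of the 27 genes, WARS1 and EARS2 (7.41%, against 4.16% of protein-coding genes). The WARS1 match is printed in capitals with 15 bases on either side, and the printed stretch lies at chr14:100375378-100375417 on the minus strand.
WARS1: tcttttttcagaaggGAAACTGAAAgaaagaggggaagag
Of 10 interferon genes listed beside it, 9 were read and 5 passed the floor, with a median difference of -0.16, 1 above 0 and 4 below, and 0 at 1.5-fold in either direction, against 3.65% higher and 4.72% lower over all genes past the floor, a share that 5 genes are too few to be read against. TAP1, the peptide transporter of antigen presentation, read 810 and 723 (-0.16), PSMB9, an immunoproteasome subunit, 325 and 253 (-0.36), and IRF1, a transcription factor of the response, 356 and 329 (-0.11). CIITA was lowest at -0.47, with its value on the siRNA-labelled array, 70.9, below the floor, and HLA-E, a class I histocompatibility gene, was highest at 0.22. IDO1, CXCL10, GBP1 and GBP2 were below the floor on both arrays. WARS1, at 0.12, lay with the other synthetases and above 4 of these 5 interferon genes.

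Several probe sets read the same gene for 18 of the 32 synthetases, and they share its RNA, so they are not replicates. Of the 67 synthetase probe sets, 53 had both values at the floor, 2 had 1 and 12 had none. Among the 53, a single probe set was 1.5-fold apart, against 2.21% of all probe sets with both values at the floor that were higher and 3.23% that were lower. It was the dimmer probe set of VARS1, which read 121 on the control-labelled array and 338 on the siRNA-labelled array, a log2 difference of 1.48 or 2.79-fold, where the brighter one gave 0.38. Both VARS1 probe sets were therefore higher on the siRNA-labelled array, by amounts that do not match.

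In 4 of the 18 genes with several probe sets, those past the floor had opposite signs and lay over 0.3 apart on the log2 scale. The share of all genes for which this holds was not computed. Opposite signs less than 0.3 apart were also found for CARS1 (-0.25 to 0.04), EPRS1 (-0.13 to 0.13) and TARS1 (-0.13 to 0.09). For FARS2 the brightest probe set gave 0.33 and another, which read 303 and 238, gave -0.35, and FARSA showed the reverse order, as given above. SARS1 had 0.06 by the brightest probe set and -0.28 by another, and the RARS2 probe sets ran from -0.01 to 0.34. For FARS2, 1 of the 6 genes past 1.2-fold, the direction thus depended on the probe set. Other members that were picked out after their values were seen had probe sets of unequal size. YARS1 had a second probe set that read 264 and 178, at -0.57, where the brightest gave -0.02, and a WARS2 probe set that read 512 and 518 gave 0.02, where the brightest gave 0.35. A dim AARS2 probe set read 30.0, below the floor, on the control-labelled array and 164 on the siRNA-labelled array, which is at least 1.67-fold higher with the lower value raised to the floor. A dim CARS2 probe set read 142 and 78.3, the latter below the floor, which is at least 1.45-fold lower. When each gene was instead averaged over its probe sets, dim ones included, VARS1 stood at 0.93 and AARS2 at 1.38, and these 2 genes passed 1.5-fold.

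**Figure D4:**
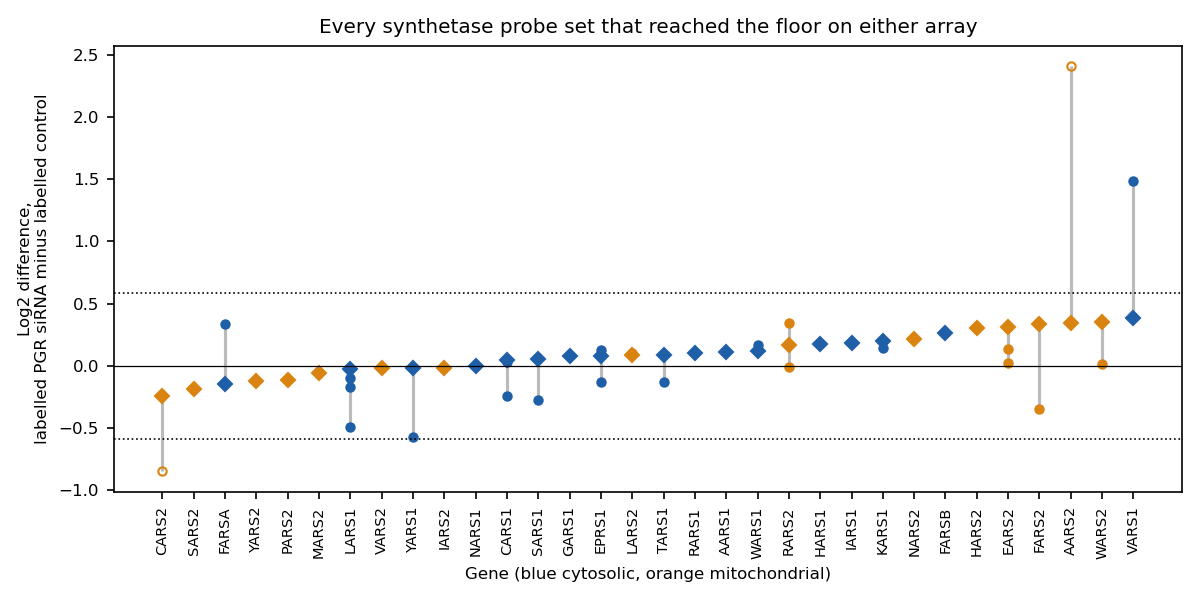
Log2 difference (siRNA-labelled minus control-labelled array) of each synthetase probe set that reached the floor on either array, with genes ordered by their brightest probe set (diamond), other probe sets as circles, open circles where only 1 value reached the floor and dotted lines at 1.5-fold. The filled point above the dotted lines is the dimmer VARS1 probe set at 1.48, and the open points are AARS2 and CARS2.

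Genes that handle charged tRNA next to the synthetases had a median difference of 0.13 over 15 genes of 19 listed, 12 above 0 and 3 below, with 2 higher by 1.5-fold or more and 0 lower, against 53.2% above 0, 3.65% higher and 4.72% lower over all genes past the floor. The 2 higher genes were dim. EEF1A2, a tissue-restricted form of the factor that brings charged tRNA to the ribosome, read 84.2, below the floor, on the control-labelled array and 159 on the siRNA-labelled array. PRORSD1P, a pseudogene related to a prolyl-tRNA editing domain, read 125 and 207, a log2 difference of 0.73. EEF1A1, the widespread form of the factor, read 48009 and 60445, a difference of 0.33, and XPOT, which exports tRNA from the nucleus, read 14406 and 16392, at 0.19. TUFM, the mitochondrial counterpart of EEF1A1, was at 0.04. DTD1, which removes D-amino acids from tRNA, was lowest at -0.18, followed by QRSL1, a subunit of the mitochondrial glutamyl-tRNA amidotransferase, at -0.11, and its partner subunits GATB and GATC were at 0.13 and 0.05. TARS3, a threonyl synthetase whose symbol falls outside the choice of genes, read 503 and 482, a difference of -0.06, inside the range of the 32 synthetases.

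**Figure D5:**
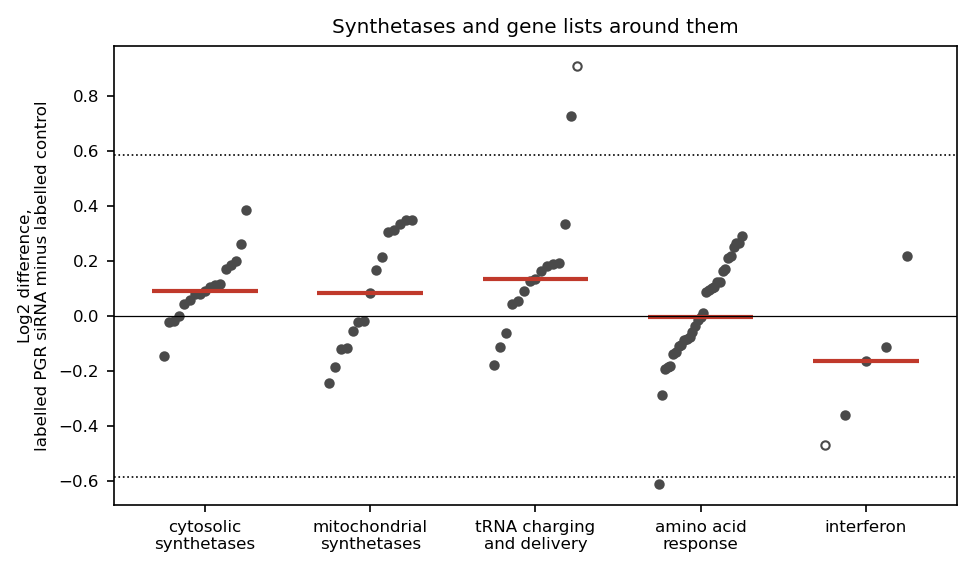
Log2 difference (siRNA-labelled minus control-labelled array) of the genes past the floor in 5 lists, with 1 point per gene (open where only 1 value reached the floor), a red line at each median and dotted lines at 1.5-fold. The medians are 0.09 for cytosolic and 0.08 for mitochondrial synthetases, 0.13 for tRNA charging and delivery, -0.0043 for the amino acid response and -0.16 for interferon genes.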

How the data were processed

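Intensities of 3' expression arrays, 1 array per condition, were deposited by the authors as linear values, 1 per probe set and array. Equal trimmed means (500.1 on both arrays after removing 2% of values at each end) show a scaling to a common level, and the summary, background and scaling methods are not given in the sources used here. Total RNA was extracted with TRIzol, purified and labelled with biotin. The labels and the methods of the study name different media for the cells.

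Values were taken as log2(intensity + 1). Probe sets with 1 gene symbol in the platform annotation (41097) were kept, whereas 1801 with several and 11777 without a symbol were not. For 41043 of them the symbol was brought up to RefSeq of GRCh38.p14 by gene identifier. A gene was counted if its higher value reached the floor. Members, lists, promoter letters and rules of size were chosen with earlier results of these data known. Named are genes past 1.5-fold, the ends of each list, members whose probe sets disagree in sign and the complex. No p-value was computed. In the promoter search, 8 sets of letters were used, overlaps between them were allowed, and a gene with 2 windows counted as a match if either held the letters. Some genes and sequences are not reported here. The calculation was tested on simulated data. Alternatives were other probe set rules, median centring, quantile normalization, loess (span 0.7), an offset of 16, other filters, values raised to the floor and other folds. The work was done in Python 3.11.15 with pandas 2.3.3, numpy 2.4.6, statsmodels 0.14.6 for loess and matplotlib 3.10.9 for plots.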

Additional observations from a re-analysis of the deposited data

How the results depend on the processing

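The median log2 difference of all 32 synthetases, 0.0862 as reported, stayed above 0 under every alternative run, as did those of the cytosolic (0.0892) and mitochondrial (0.0831) genes. In the order all, cytosolic and mitochondrial, the medians were 0.108, 0.103 and 0.214 when a gene was read by the mean over its probe sets, 0.0651, 0.0681 and 0.062 with median centring, and 0.0437, 0.0374 and 0.0671 with loess. Quantile normalization gave 0.0642 for all and 0.055 for cytosolic genes, and probe sets without a mark for shared sequence, which read 26 synthetases, gave 0.0963 for all and 0.103 for cytosolic genes. The filter at the 75th percentile kept 28 synthetases and gave 0.0963 for all and 0.166 for mitochondrial genes. The other alternatives left these medians the same to 2 decimals. The count of higher genes, 0 at 1.5-fold, was 2 with the mean over probe sets (VARS1 and AARS2, each with a dim probe set of large difference), 6 when the fold was lowered to 1.2 and 4 when it was lowered to 1.25, both chosen after the values were seen, and 0 in all other alternatives. With loess CARS1 and SARS1 changed sign, with quantile normalization SARS1 did, with unmarked probe sets FARSA did, and with the mean over probe sets CARS2, FARSA, SARS1 and TARS1 did, all of them under 1.2-fold as reported. The count of pairs with the same sign, 6 of 13, ran from 5 of 11 with the filter at the 75th percentile to 9 of 13 with averaged probe sets, and was 6 of 9 with unmarked probe sets. No paired analysis was possible because each condition had 1 array. With 1 array per condition the differences have no replicate check.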
